A study of Drosophila melanogaster with 12 samples.

Results

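The sites at which PSC was found in mitotic Drosophila cells were divided by whether PH was found at the same place in mitotic cells. Members were chosen by overlap: a peak of a PSC mitotic list on chromosomes 2L, 2R, 3L, 3R, 4 or X that overlapped a peak of the PH mitotic list by at least 1 bp is called a PSC and PH site, and the remaining peaks are called PSC only sites. In PSC mitotic replicate 1 there were 138 PSC and PH sites and 428 PSC only sites, out of 566 peaks on the arms, and in PSC mitotic replicate 2 there were 40 and 13, out of 53. The 3 mitotic lists held 768 peaks on the arms, of 13522 peaks in all 6 lists of the series. No mitotic list had a peak on chromosome 4, so every site lay on 2L, 2R, 3L, 3R or X.

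PSC (Posterior sex combs) and PH (Polyhomeotic) are core subunits of Polycomb Repressive Complex 1 (PRC1), the complex of Polycomb Group proteins that holds developmental genes silent after the signals that first silenced them have gone. In vitro PSC compacts arrays of nucleosomes and blocks their remodelling, while PH carries a SAM domain through which PH molecules join into chains. Many DNA-binding factors leave chromosomes when they condense at mitosis.

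The PSC ChIP-SEQ was made in S2 cells, a line derived from Drosophila embryos, with an antibody to PSC. For ChIP on sorted cells the authors describe a PSC antibody carrying biotin, captured on streptavidin beads. Mitotic S2 cells had been held in colchicine, a spindle poison, at 350 ng/ml (880 nM) for 15 h and were sorted with an antibody to phosphorylated serine 10 of histone H3 (H3S10p), a mark of mitotic chromosomes. The PH ChIP-SEQ was made in an S2 line that expresses PH with a biotin acceptor and a FLAG tag, together with the biotin ligase BirA, from a metallothionein promoter. The tagged protein was pulled down with streptavidin from mitotic cells prepared in the same way, with 1 sample. Control cells of each line had no colchicine and were sorted with an antibody to histone H3. PSC had 2 replicates of mitotic and 2 of control cells, and PH had 1 sample of each. PSC and PH therefore differ together in protein, cell line and the handle of the pulldown, an antibody for PSC and a tag for PH. The mitotic PH list was also called at a less stringent cutoff, whose value is not given, whereas the other lists were filtered at a false discovery rate of 5%. These cannot be told apart. Mitotic and control cells differ in colchicine and sorting antibody as well as in the stage of the cell cycle. The FACS gate for H3S10p is the check on the labelled stage, since peak lists hold no marker of it. The authors analysed the cells again after sorting and allowed for up to 5% of non-mitotic cells among them. They judged mitotic PSC sites unlikely to come from such cells, which was not tested here.

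Each peak has a score, which is read here as -10 times the log10 of its p-value, and which was used mainly as a rank within its own list. Scores on the arms ran between 50 and 3044.82 in PSC mitotic replicate 1 (median 115), between 72.85 and 315.16 in replicate 2 (median 110.2) and between 50.19 and 405.9 in PH (median 80.9). The lists give no read numbers, so the depth behind each list cannot be read from them, and a site without a PH peak is a site below the threshold of the PH list and not a site shown to lack PH. The authors reported that read numbers within peaks correlated closely between mitotic PSC and PH, and that most mitotic PH peaks were also mitotic PSC peaks. They also reported a lower signal to noise for mitotic PH than for PSC, and left the mitotic PH profile out of their later comparisons. PSC only sites may thus include sites with PH that this list missed, which was not tested. With 1 PH list no test over samples was possible, and no p-value is given. Intervals are exact binomial (Clopper-Pearson) 95% intervals for shares and order-statistic 95% intervals for medians. They cover counting error within a list only, since neighbouring peaks are not independent and cultures were not resampled.

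PH was found at 138 of the 566 mitotic PSC sites of replicate 1, which is 24.4% (20.9 to 28.1%), and at 40 of the 53 of replicate 2, which is 75.5% (61.7 to 86.2%). The shorter PSC list was thus the one with the larger share of PH. The 566 sites fell into 4 combinations. There were 40 sites (7.07%) with PH and PSC replicate 2, 98 (17.3%) with PH but without replicate 2, 12 (2.12%) with replicate 2 but without PH, and 416 (73.5%) in neither other list. Seen by mitotic PSC replicate, 40 of the 138 PSC and PH sites (29.0%, 21.6 to 37.3%) were found again in replicate 2, against 12 of the 428 PSC only sites (2.80%, 1.46 to 4.85%). Over all replicate 1 sites that share was 9.19%. The sites that PH shared with replicate 1 were also the ones that the second PSC list recovered more often, and the intervals of the 2 shares did not overlap. This rested mainly on the highest of 4 bins of PSC score, where 38 of 89 PSC and PH sites and 4 of 53 PSC only sites were found again. In the lower bins, strongest first, these were 1 of 34 and 3 of 108, 1 of 11 and 3 of 130, and 0 of 4 and 2 of 137.

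The PSC and PH sites were the high-scoring sites of the mitotic PSC list. Their scores ran between 54.43 and 3044.82 with a median of 323 (269 to 390), and the scores of PSC only sites ran between 50 and 868.46 with a median of 92.2 (83.9 to 100.4). As a percentile of the replicate 1 list the medians were 85.1 and 39.2, a difference of 45.9 points. In 86.3% of all pairs of 1 PSC and PH site with 1 PSC only site, the PSC and PH site had the higher PSC score. The ranges still overlapped widely, and 15 sites with PH stood among the 281 sites of the lowest 5 deciles. Replicate 2 had a smaller difference of the same sign: its 40 sites with PH had a median score of 121.7 (94.1 to 151), and its 13 sites without PH one of 97.5 (76.5 to 131), so the 2 intervals overlapped, and 68.1% of pairs were higher at the site with PH.

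**Figure D1:**
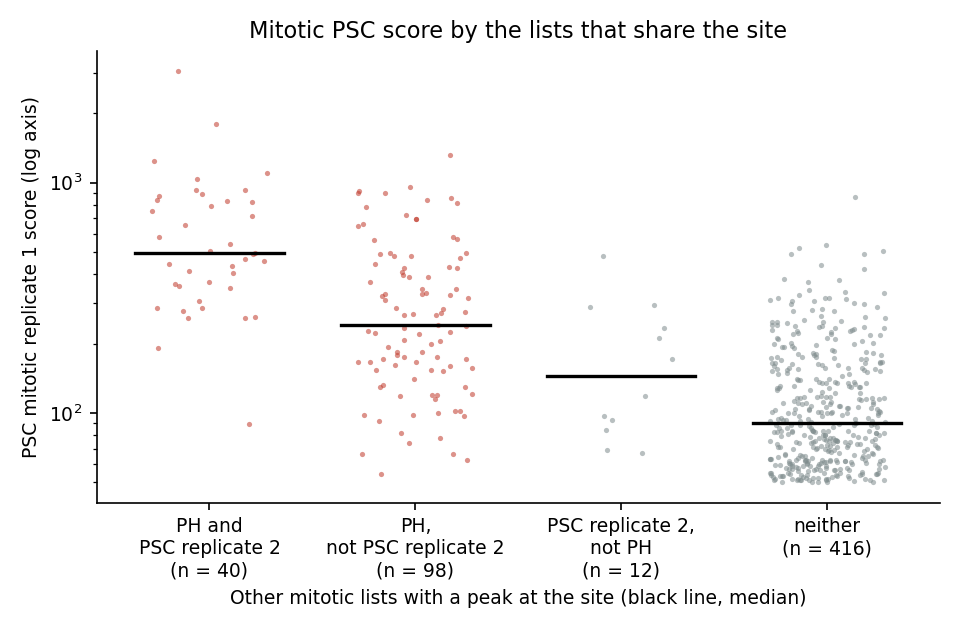
Each point is a peak of PSC mitotic replicate 1, placed by the other mitotic lists that had a peak there, with its score on a log axis and the median as a black line. The medians are 494 with PH and replicate 2 (40 sites), 240 with PH alone (98 sites), 145 with replicate 2 alone (12 sites) and 90.8 with neither (416 sites).

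The combinations were ordered the same way. Median PSC replicate 1 scores were 494 (406 to 755) at sites with PH and replicate 2, 240 (184 to 322) with PH alone, 145 (84.3 to 288) with replicate 2 alone and 90.8 (83.2 to 100.2) with neither. The interval for the 12 sites with replicate 2 alone overlapped those of the groups on either side of it, and their order is not resolved. Leaving out every site found in replicate 2, PH was found at 19.1% of the rest, and those sites had a median percentile of 76.9 with PH against 38.7 without. The higher PSC score of sites with PH was thus also seen outside the sites that replicate 2 holds.

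Taken in deciles of PSC score, the share of sites with PH was 86.0% in the highest (49 of 57), 56.1% in the next (32 of 57), and 26.3%, 29.8% and 17.5% in the third to the fifth. It was 10.5%, 7.14% and 5.36% in the sixth to the eighth, and 1.79% (1 of 56) in each of the lowest 2. The 14 highest PSC peaks all had PH, and the highest without it stood at rank 15. The 2 highest deciles held 81 of the 138 sites with PH. The scores of PH sites and PSC only sites differed within the top decile too: the 8 PSC only sites there had a median of 496, and the 49 sites with PH one of 719.

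**Figure D2:**
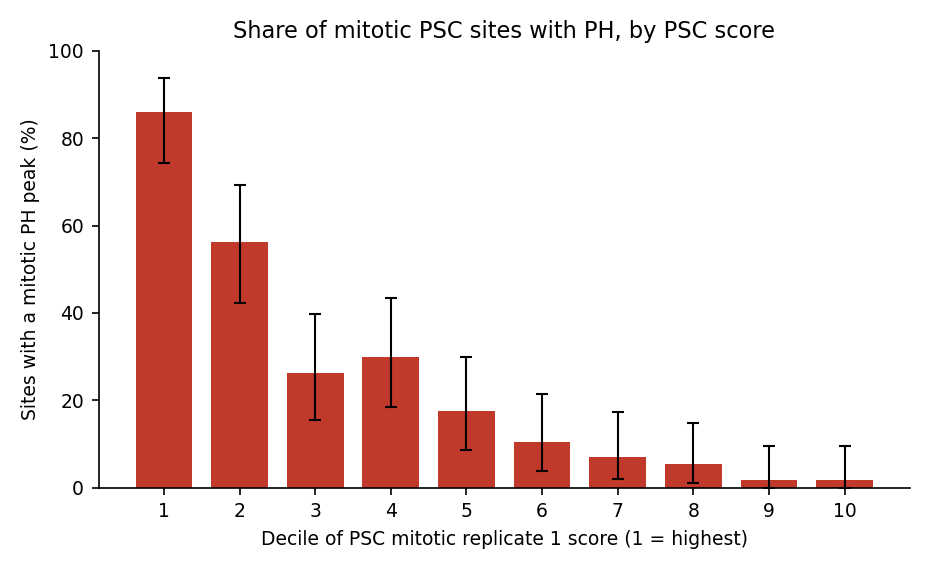
Bars give the percentage of PSC mitotic replicate 1 sites with a mitotic PH peak in each decile of PSC score, 56 or 57 sites a bar, and the lines exact binomial 95% intervals. The share is 86.0% in the highest decile and 1.79% in the lowest.

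Read from the other side, PH and PSC scores were also ordered together. The PH list was divided into 4 bins of score. In the highest bin, with scores of 123.2 to 405.9, 37 of 38 sites had PSC replicate 1 (97.4%) and 19 had replicate 2 (50%). In the lowest bin, with scores of 50.19 to 64.24, 30 of 37 had PSC replicate 1 (81.1%) and 3 had replicate 2 (8.11%). The 2 bins between had 94.6% and 97.3% with replicate 1, and 27.0% and 21.6% with replicate 2. Over all 149 PH sites the shares were 92.6% and 26.8%. The share with replicate 1 was thus lower in the lowest bin only, and its interval (64.8 to 92.0%) overlapped that of the highest (86.2 to 99.9%). The first 36 PH peaks all had PSC replicate 1. PH sites with both PSC replicates had a median PH score of 116 (93.4 to 174), and those with replicate 1 only had one of 76.8 (69.8 to 85.7), with the first higher in 71.7% of pairs. Across the 138 shared sites, Spearman's rho between the PSC replicate 1 and PH scores was 0.51. It was 0.30 at the 98 of them outside replicate 2 and 0.71 at the 40 inside it. Between the scores of the PSC replicates rho was 0.27 over their 52 shared sites, which are not the same sites. These are descriptions across sites of single libraries.

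The 5 shared sites with the highest PH score illustrate this (dm3 positions of the PH peak). At 2R 16771394 to 16772834 the PH score was 405.9 (rank 1), and the PSC scores were 844.61 (rank 17) in replicate 1 and 315.16 (rank 1) in replicate 2. At 3R 26886490 to 26887949 PH had 364.05, and PSC 820.23 (rank 20) and 170.65 (rank 10). At 3R 27044799 to 27046989 PH had 346.83, and PSC 3044.82, the highest score of replicate 1, and 138.3 (rank 17). These 3 sites were among the first 20 of each mitotic list, in orders that differed. At 3L 16580708 to 16582192 PH had 333.76 and PSC 1035.35 (rank 6), but only 80.92 (rank 44) in replicate 2. The fifth was a wide region at X 12614485 to 12648667 with a PH score of 329.11, described with the peak widths. All 5 had peaks in the 3 control lists. The site on 2R stood at rank 439 of 4796 in PSC control replicate 1, 78 of 3254 in PSC control replicate 2 and 747 of 4589 in PH control cells.

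The highest PSC only site was 2R 7855905 to 7858201 with a PSC score of 868.46. It had no peak in PSC mitotic replicate 2, a score of 3100 in PSC control replicate 1 and in PH control cells, and 163.78 in PSC control replicate 2, and the nearest mitotic PH peak lay 1072312 bp away. The next, X 8301334 to 8303603 (537.56, rank 37), had scores of 2477.32 in PSC control replicate 1 and 3100 in PH control cells, and no peak in control replicate 2. After it came 3L 9422479 to 9423913 with a PSC score of 521.63, 2L 12545981 to 12547665 with 502.89, and X 11047425 to 11048838 with 489.35. None of these 5 was in PSC mitotic replicate 2, which held 2.80% of all PSC only sites. Each had a PH peak in control cells, as had 98.6% of all PSC only sites. The site on 2L had a score of 3209.92 in PSC control replicate 1 (rank 8), and that on X 1078.18 (rank 1437), so strong PSC peaks without mitotic PH came from distant ranks of the control list.

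At the other end, the 5 shared sites with the lowest PSC score were all absent from PSC replicate 2, as were 98 of all 138 PSC and PH sites. The lowest was X 7520586 to 7521530, with a PSC score of 54.43 (rank 525 of 566) and a PH score of 172.95 (rank 21 of 149), the reverse of the general order. The other 4 were low in the PSC list, and 3 of them low in PH. They were 2L 13176390 to 13177439 (PSC 62.7, PH 56.52), 3L 21020012 to 21021616 (66.2, 62.07), 3R 27550731 to 27552138 (66.58, 58.15) and 3R 10216643 to 10217735 (74.28, 76.96), the last at rank 82 of 149 in PH.

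Of the 149 PH sites, 11 (7.38%) had no PSC replicate 1 peak, and none of them had a replicate 2 peak, which 26.8% of all PH sites had. Their median PH score was 60.1 (51.8 to 117), against 81.8 (75.6 to 93.5) at the 138 sites with PSC. The first interval contains the second, so the lower score of the 11 is not resolved. The strongest was 2L 4970257 to 4972060 with a score of 125.29 (rank 37), 36981 bp from the nearest mitotic PSC peak. X 7498101 to 7499276 had 117.15 and 2L 11806404 to 11808194 had 112.31, the last of them 422 bp from a PSC peak. The other 8 scored between 50.78 and 79.64. These were 2L 10231474 to 10232471, 2L 16350800 to 16353376, 2R 13344518 to 13346202, 2R 15884809 to 15885869, 3L 987703 to 988513, 3L 6896700 to 6897687, 3R 4879915 to 4880837 and X 7501838 to 7502718. In control cells 10 of the 11 had PSC replicate 1 and PH peaks. The exception, 3L 987703 to 988513 with a PH score of 51.75, had no peak in any other list. All 138 PH sites with mitotic PSC replicate 1 had a PH control peak, so such a peak was not particular to the 11. Both X sites lay close to the weak PSC site at X 7520586, at 21309 and 17867 bp.

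Of the 13 replicate 2 sites without PH, 12 were also in replicate 1. The 5 with the highest replicate 2 scores were 2L 16656307 to 16657367 (137.39), 2L 18839235 to 18840340 (135.97), X 5777130 to 5778013 (131.4), 2L 8888446 to 8889558 (115.96) and 2L 3785997 to 3786918 (110.21). Their replicate 1 scores lay between 67.22 and 234.95, so they were not among the first 100 of that list. The first 17 sites of replicate 2 all had PH. The only replicate 2 site in neither other mitotic list was 3L 9434926 to 9436251, with a score of 97.54 there and 3100 in PSC control replicate 1.

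Over all sites, those with PH were longer. The median PSC peak length in replicate 1 was 1473 bp (1417 to 1521) at PSC and PH sites and 1234 bp (1202 to 1254) at PSC only sites, a difference of 239 bp, and the PSC and PH site was the longer in 74.2% of pairs. Length and score moved together (rho 0.62 over the 566 sites). Within 4 bins of PSC score the difference was 73, 15.5, 186.5 and 147 bp, strongest bin first, with a median of 110 bp. In the finer deciles it was of either sign. It was -31 bp in each of the highest 2 (1563 against 1594 bp and 1451 against 1482 bp), which hold 81 of the 138 PSC and PH sites, between -53.5 and 53.5 bp in the next 3, 180.5, 373 and 300 bp in the sixth to the eighth, and -9 and -136 bp in the lowest 2, where there is 1 PSC and PH site each. Among the highest-scoring sites those with PH were thus not the longer ones. In replicate 2 the medians were 1079 and 1055 bp, a difference of 24 bp, with overlapping intervals. A longer peak also has more chance to meet another peak, and the part of this in the shares was not tested.

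Mitotic PSC peaks were narrower than the control peaks at the same places in both groups. Length in mitotic cells was 68.5% (60.3 to 73.6%) of that of the matching peak of PSC control replicate 1 at PSC and PH sites, and 63.4% (61.1 to 64.8%) at PSC only sites, as medians, and the intervals overlapped. Only 1 of 138 PSC and PH sites and 4 of 423 PSC only sites were longer than their control peak.

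A few sites were very wide. The X region was covered by a PSC peak of 29364 bp in replicate 1 (12619289 to 12648652, score 363.84, rank 73), a PSC peak of 8544 bp in replicate 2 (12640101 to 12648644, 191.07), and a PH peak of 34183 bp (12614485 to 12648667, 329.11). In control cells the peaks were 36553, 39537 and 42908 bp long in PSC replicate 1, PSC replicate 2 and PH. In each of the 6 lists the right edge fell between 12648644 and 12648670, while the left edges were spread out. A second shared site began just to the right, with PSC at 12648871 to 12653472 (131.96) and PH at 12648871 to 12654303 (67.19), which have the same start. Of the 5 PSC peaks over 5 kb, 1 had PH, the X peak, against 24.4% of all 566 sites, too few to tell from that share. The widest of all was a PSC only site, 3R 25587127 to 25626842, of 39716 bp, with a score of 57.2 (rank 507). Its neighbour at 3R 25628091 to 25638999 scored 56.89, and the highest-scoring control peak at both was an 11571 bp peak of PSC control replicate 1. The remaining wide PSC only sites were 3R 8836354 to 8845261 (8908 bp, 150.94) and 2R 6451114 to 6458342 (7229 bp, 314.16).

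PSC and PH peaks were centred close together. The 138 PSC sites and 138 PH peaks formed 139 overlapping pairs, because 1 PSC peak met 2 PH peaks and 1 PH peak met 2 PSC peaks. The midpoints lay a median of 76.5 bp apart (53 to 85), with quartiles of 28 and 151 bp, against a median PSC peak length of 1478 bp over the pairs. In 87 pairs (62.6%) the distance was at most 100 bp, and in 126 at most 500 bp. The PH midpoint fell within the PSC peak in 137 pairs, and in 84 pairs the PH peak lay wholly inside the PSC peak. PH was to the left of PSC in 84 pairs and to the right in 55, with a signed median of -18.5 bp, on a genome where left and right carry no direction of transcription.

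The PSC replicates were closer to each other than to PH. At the 40 sites in all 3 lists, the median distance was 55 bp (42 to 80) between PSC replicate 1 and PH, and 33.25 bp (23 to 75.5) between the PSC replicates, with overlapping intervals. Sites with PH but without PSC replicate 2 had a median of 78 bp (60 to 110.5). In control cells the distance between PSC replicate 1 and PH was 57.5 bp (45.5 to 73.5) at 136 pairs on PSC and PH sites and 44 bp (37.5 to 53) at 418 pairs on PSC only sites. In control cells, PSC and PH peaks thus lay about as close at PSC only sites as at PSC and PH sites, and the intervals overlapped.

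**Figure D3:**
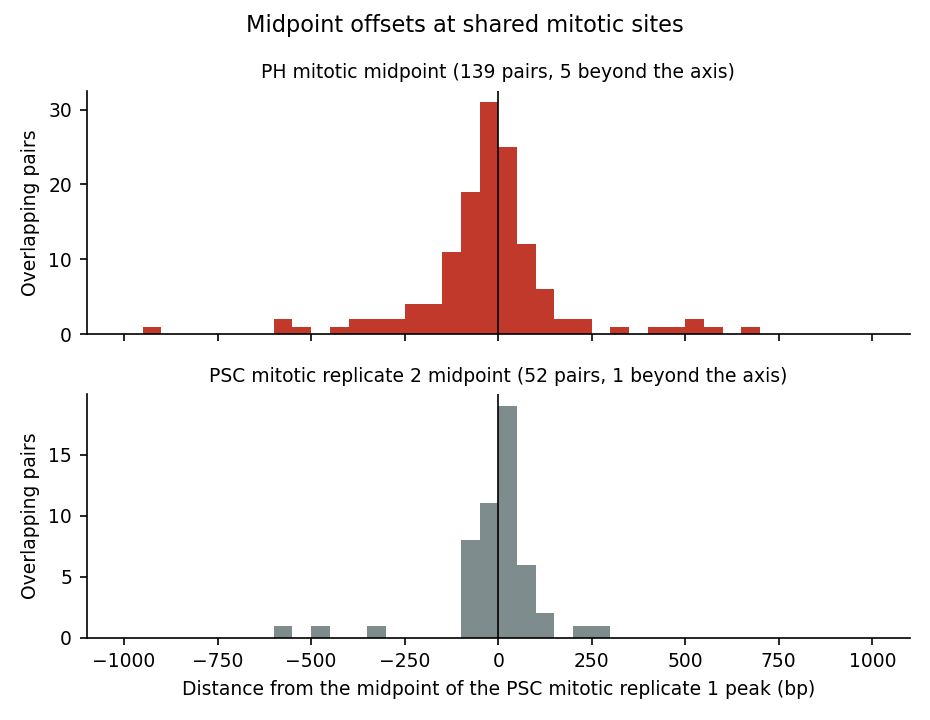
Histograms in 50 bp bins of the distance between the midpoint of the PSC mitotic replicate 1 peak and that of the overlapping PH mitotic peak (above, 139 pairs) or PSC mitotic replicate 2 peak (below, 52 pairs). Both are centred near 0, with median absolute distances of 76.5 and 31.75 bp, and 5 and 1 pairs lie beyond 1000 bp.

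The largest distances belonged to wide or split peaks. The X region had -2394.5 bp. At 2R 11817474 to 11821148 a PSC peak of 3675 bp (82.1) met a PH peak of 7371 bp (66.97) whose midpoint lay 1806 bp to the left. At 3L 21020012 to 21021616 the peaks overlapped only at their ends, with midpoints 1517.5 bp apart, inside longer control peaks of 5472 bp in PSC replicate 1, 3923 bp in PSC replicate 2 and 5586 bp in PH. The PSC peak at 2L 5979641 to 5982981 (score 1323, rank 3) was the one that met 2 PH peaks, with scores of 300.41 and 85.51, on either side of its midpoint.

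Nearly all sites of both groups were bound by PSC and by PH in control cells. A peak of PSC control replicate 1 was present at 138 of 138 PSC and PH sites and 423 of 428 PSC only sites (98.8%), and a PH control peak at 138 of 138 and 422 of 428 (98.6%). Over all peaks of PSC control replicate 1 the share with a PH control peak was 91.1%, and over the 556 that met a mitotic PSC replicate 1 peak it was 99.8%. PSC control replicate 2 had a peak at 133 of 138 (96.4%, 91.7 to 98.8%) and at 381 of 428 (89.0%, 85.7 to 91.8%). Seen over the control list, 146 of the 4796 peaks of PSC control replicate 1 (3.04%) met a mitotic PH peak.

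The matching control peaks ranked high in both groups, and over all sites the medians were higher at PSC and PH sites. In PSC control replicate 1 the median percentile was 91.5 (88.5 to 94.3) at PSC and PH sites and 85.6 (83.4 to 87.2) at PSC only sites, a difference of 5.92 points, and 62.8% of pairs were higher at the PSC and PH site. In PSC control replicate 2 the medians were 84.4 (78.1 to 90.8) and 76.4 (73.4 to 81.1), with 60.2% of pairs, and there the intervals overlapped. Between the opposite ends of these intervals the difference ran from -3.07 to 17.4 points, a wider span than an interval of the difference itself. In PH control cells the medians were 91.2 (88.9 to 94.3) and 85.1 (83.2 to 86.4), with 61.9% of pairs. The differences were 5.92, 7.99 and 6.12 points. Control percentiles are taken within the whole control list and are not on the scale of the mitotic percentiles. In the lower 50% of PSC control replicate 1 lay the matches of 3 of 138 PSC and PH sites and 36 of 423 PSC only sites. In that of PSC control replicate 2 lay 15 of 133 and 82 of 381. Outside the sites found in PSC mitotic replicate 2 the differences were 7.37, 3.38 and 6.38 points, so the difference in PSC control replicate 2 was the one that rested partly on those sites. Within the 4 bins of mitotic PSC score, strongest first, the difference in PSC control replicate 1 was 2.90, 2.67, 2.30 and 9.98 points, the last with 4 PSC and PH sites. In PSC control replicate 2 it was -1.95 points in the next to strongest of these bins. In the highest decile of mitotic score, which holds 49 of the 138 PSC and PH sites, the sign turned in PSC control replicate 1 (92.1 against 95.6, -3.52 points) and in PH control cells (-2.82 points), and among the other deciles it was negative in PSC control replicate 1 in the fourth (-4.60) and the tenth (-23.5, with 1 PSC and PH site). The higher control rank of PSC and PH sites therefore did not hold at each level of mitotic score. In the upper 10% of PSC control replicate 1 lay the matches of 76 of 138 PSC and PH sites (55.1%, 46.4 to 63.5%) and 150 of 423 PSC only sites (35.5%, 30.9 to 40.2%).

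The top of the control lists was tied, which limits these ranks. In PSC control replicate 1, 155 peaks out of 4796 had a score of exactly 3100 and 28 a higher one. In PH control cells 203 out of 4589 had 3100 and 24 a higher score, whereas PSC control replicate 2 had none. Control scores of 3100 or more stood at 44 of 138 PSC and PH sites (31.9%, 24.2 to 40.4%) and 64 of 423 PSC only sites (15.1%, 11.9 to 18.9%) in PSC control replicate 1. Within these ties no order of binding in control cells can be read.

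**Figure D4:**
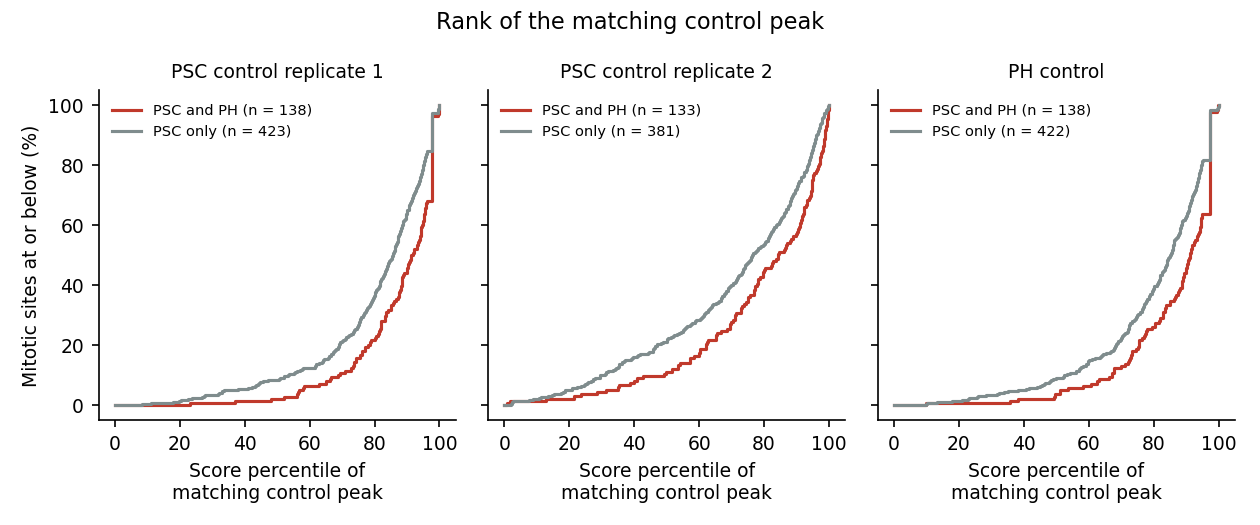
Cumulative percentage of mitotic sites against the score percentile of the matching control peak, for PSC and PH sites (red) and PSC only sites (grey), in PSC control replicate 1, PSC control replicate 2 and PH control cells. The red line lies to the right over most of each panel, with medians of 91.5 against 85.6, 84.4 against 76.4 and 91.2 against 85.1, and the steps near 98 in the first and last panels are the peaks tied at 3100.

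The share with PH changed less over control scores than over mitotic scores. In 4 bins of the matching control score, strongest first, 38.3%, 25%, 18.6% and 16.4% of sites had mitotic PH, and in 4 bins of mitotic PSC score 62.7%, 23.9%, 7.80% and 2.84%. Within each control bin, the median mitotic PSC score was higher at PSC and PH sites than at PSC only sites, at 316 against 117, 349 against 102, 269 against 93.4, and 308 against 74.9. Across the 138 PSC and PH sites, rho between the mitotic and control PSC scores was 0.07, and it was 0.25 across 423 PSC only sites.

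Both groups were spread over all 5 arms. On X, 20 of the 62 PSC sites had PH (32.3%, 20.9 to 45.3%), against 118 of the 504 on the autosomes together (23.4%, 19.8 to 27.4%). Among the autosomal arms the share was 25.7% of 152 sites for 3R, 23.3% of 116 for 3L, 22.1% of 122 for 2R and 21.9% of 114 for 2L. The X had the highest share, but its interval overlapped that of the autosomes, and once peaks scoring under 100 were left out of every mitotic list its share was 15.4%, below the 15.8% over all arms. X sites had a median score percentile of 59.4 against 49.5 on the autosomes, and 18 of the 20 X sites with PH stood in the highest of the 4 bins of PSC score. In that bin the shares were 72.0% (18 of 25) on X and 60.7% (71 of 117) on the autosomes, with overlapping intervals. Below it PH was found at 2 of 37 X sites (5.41%) and 47 of 387 autosomal sites (12.1%), again with overlapping intervals.

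In replicate 2 the X held 14 of the 53 sites, against 22 of 149 PH sites and 62 of 566 sites of replicate 1, and in control cells 696 of 4796 peaks of PSC replicate 1, 211 of 3254 of PSC replicate 2 and 658 of 4589 of PH. Of the 14 sites, 13 had PH (92.9%, 66.1 to 99.8%), against 27 of 39 (69.2%, 52.4 to 83.0%) on the autosomes, with overlapping intervals, and 3R alone had 10 of 11 (90.9%). Of the PSC and PH sites of replicate 1, 13 of 20 on X (65.0%, 40.8 to 84.6%) were found again in replicate 2, against 27 of 118 on the autosomes (22.9%, 15.7 to 31.5%), and these intervals did not overlap. The X sites with PH also had the higher median PSC score, at 438 against 286, and the part of this in their return in replicate 2 was not tested. Of the PSC only sites, 1 of 42 and 11 of 386 were found again. The arm was singled out after its values were seen.

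**Figure D5:**
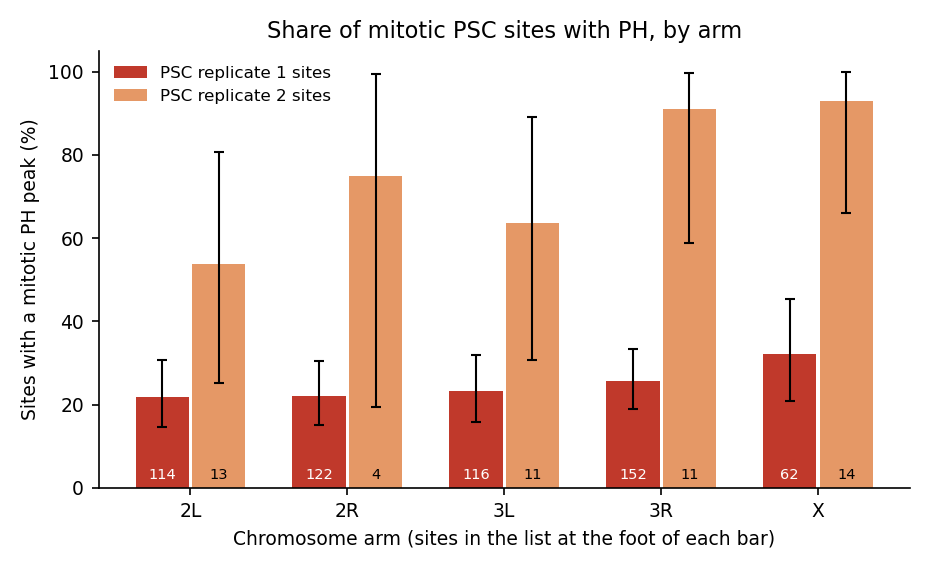
Bars give the percentage of PSC mitotic sites with a mitotic PH peak on each arm, for replicate 1 (red) and replicate 2 (orange), with exact binomial 95% intervals and the number of sites at the foot of each bar. Shares run between 21.9% and 32.3% in replicate 1, and X has 92.9% in replicate 2.

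Within the arms, the share of PSC sites with PH varied over neighbouring windows, which held few sites each. Whether it varied by more than counting error was not tested. Of 50 windows of 2 Mbp with at least 5 sites, the median share was 25%, and 6 windows had no PH. The highest share was 9 of 14 sites (64.3%, 35.1 to 87.2%) at 3R 10000001 to 12000000 and the lowest 0 of 11 at 3R 4000001 to 6000000. These 2 windows were picked as the extremes of the 50, which their intervals do not allow for. In windows of 5 Mbp the highest was 7 of 14 (50%, 23.0 to 77.0%) at X 10000001 to 15000000 and the lowest 2 of 24 (8.33%) at 2L 1 to 5000000. Along the arm, measured from the centromere end of the span of the control peaks, the medians were 53.0% (47.7 to 63.6%) for PSC and PH sites and 55% (51 to 57.5%) for PSC only sites. The 25% of the span nearest the centromere held 11.6% of PSC and PH sites and 17.8% of PSC only sites, with overlapping intervals.

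Spacing differed little between the groups. Another PSC replicate 1 site lay within 50 kb of 69 of 138 PSC and PH sites (50%, 41.4 to 58.6%) and 212 of 428 PSC only sites (49.5%, 44.7 to 54.4%), against 49.6% of all 566. The median distance to the nearest other site was 50554 bp (37602 to 64280) and 52104 bp (40301 to 60352). Among PSC and PH sites, those found in replicate 2 lay farther from their neighbours (128584 bp, 44421 to 171507) than those not found there (44542.5 bp, 22169 to 59827), though the intervals overlapped. The nearest neighbour had PH at 41 of 138 PSC and PH sites (29.7%, 22.2 to 38.1%) and 95 of 428 PSC only sites (22.2%, 18.3 to 26.4%). The median distance between a PSC only site and the nearest mitotic PH peak was 240108 bp, with 74 of 428 (17.3%) within 50 kb and 10 (2.34%) within 5 kb. Few sites had any neighbour so near: 41 PSC only sites had another PSC site within 5 kb, and for 9 of these 41 (22.0%) the neighbour had PH, close to the 24.4% of all sites.

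In order along the arms, the PSC and PH sites formed 102 runs not interrupted by a PSC only site, 79 of them of 1 site, and the PSC only sites formed 106 runs of up to 16 sites. With PH at 24.4% of all 566 sites, short runs with PH and long runs without it can arise from that share alone. Whether the runs differ from those of sites in random order was not tested. The longest run with PH had 5 sites over 621 kb at 3R 26426888 to 27047555. It held the first-ranked PSC peak and the PH peaks of ranks 2 and 3, and also weaker sites, with PSC scores of 119.76, 99.73 and 166.21, the last 2 under a single PH peak of 96.53. The densest run was 3 sites in 8.88 kb at 2L 12002938 to 12011813. Their PSC scores of 227.95, 101.6 and 118.28 stood at PSC ranks 145, 313 and 274 of 566, while their PH scores of 167.93, 182.79 and 111.51 stood at PH ranks 23, 17 and 48. None of the 3 was in PSC replicate 2, which held 29.0% of all PSC and PH sites.

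The longest run without PH had 16 sites over 2817 kb at 2R 5986533 to 8803914. Its PSC scores ran between 51.82 and 868.46, and it included the highest PSC only site, a site of 488.95 (rank 47) and the wide site of 314.16. All 16 had a peak in PSC control replicate 1, 6 of them with a score of 3100, and none was in PSC mitotic replicate 2. Over all PSC only sites 98.8% had a peak in that control list, and 2.80% were in PSC mitotic replicate 2. Of those with such a control peak, 15.1% had a score of 3100 or more. High and low PSC scores were mixed along this stretch, and the site of rank 47 lay 437164 bp from any other. The next longest, 13 sites at 2L 1613626 to 4810656, held no score above 251.67.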

How the data were processed

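Peak lists of ChIP-SEQ were used for 6 of the 12 samples: PSC in mitotic and control S2 cells (2 replicates each) and PH in mitotic and control cells of the tagged S2 line (1 each). The 6 inputs were left out, and how they entered the peak calling, and so the scores, is not given in the sources used here. Bowtie 1.1.2 had been used by the authors to place reads of 36 bp on dm3, and only unique matches were retained. Each sample was then run through MACS on its own (p cutoff 1e-05, genome size 120000000, bandwidth 200, fragment size 36). A false discovery rate of 5% was required except for mitotic PH, and U and Uextra were dropped. The versions, with 1.0.1 for MACS, are from the submitters' processing notes. The deposited score of each peak is the authors' value and its positions are in bp. The lists hold no depth per sample.

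Positions are given 1-based. Overlaps were computed in Python 3.11.15 (pandas 2.3.3, numpy 2.4.6, scipy 1.17.1), tested on simulated data, and checked with bedtools 2.31.1 (the same count in 30 of 30 pairs). Percentiles are ranks within a list with ties averaged, and the control match of a site is the overlapping peak of highest score. Groups were taken from the sample labels. No test was run, since members of 1 list are not replicates. Alternatives were sharing at 50% or more of the shorter peak, sharing within 500 bp, a score of at least 100, the upper 50% of each list, each PSC replicate left out, another control list, 5 kb neighbours, 4 bins of score and 5 Mbp windows.

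The members, rules and alternatives were chosen with earlier results of these data known. The sites named were the 5 highest PSC only sites, the 5 shared sites highest in PH, the 5 shared sites lowest in PSC, all PH sites without PSC, the 5 highest replicate 2 sites without PH, the 3 largest offsets and the longest runs. Peaks over 5 kb and the site beside the X peak, the replicate 2 site without replicate 1, the densest run and the PSC peak meeting 2 PH peaks were added after their values were seen. No genome or annotation of dm3 was used, so no gene is assigned to a site.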

Additional observations from a re-analysis of the deposited data

Results flagged for a closer look

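Peaks on the mitochondrial genome, which the comparisons leave out, were present in the mitotic PSC lists and in none of the control lists or the mitotic PH list. PSC mitotic replicate 1 held 7 such peaks, with scores of 50.17 to 287.58, and replicate 2 held 6, with scores of 147.23 to 537.96. The PH mitotic list held 0. In replicate 2 the highest mitochondrial score was above that of every peak on the arms (315.16). Their cause was not tested.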

How the results depend on the processing

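Of 55 alternative values, 45 stayed within the interval of the reported value and 10 fell outside it. Among these alternative values, the only difference to change sign was that in spacing, 0.47 points as reported and -0.015 points at an overlap of 50% of the shorter peak, both with intervals that include 0. Deciles of PSC score are not among these values, and within them other differences also changed sign. The length difference was -31 bp in each of the highest 2 deciles. In the highest decile the control rank difference was -3.52 points in PSC control replicate 1. With a score of at least 100 in every mitotic list, the share of PSC replicate 1 sites with PH was 15.8% and that on X 15.4%, which turns the order of X and the whole. Outside PSC replicate 2, an alternative chosen after seeing the data, the share with PH was 19.1%. The length difference was 149.5 bp in the upper 50% of each list and 110 bp as the median within 4 bins of score.

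Without PSC mitotic replicate 1, so that replicate 2 stands in, the share of PSC sites with PH was 75.5% and the share on X 92.9%. The score rank difference was then 16.3 points and the length difference 24 bp, with intervals that include 0. Intervals of differences join opposite ends of the separate intervals, so including 0 does not show that a difference is absent. The share of PH sites with PSC was 26.8% without replicate 1 and 92.6% without replicate 2. The control rank difference was 5.22 points without mitotic replicate 1 and 7.99 without control replicate 1, both with intervals that include 0, unlike the reported 5.92. The midpoint offset was 53.75 bp and the spacing difference 0 without mitotic replicate 1. Replicate 2 has 53 sites against 566, and the depth behind each list cannot be read from the files.

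No paired analysis was possible because the comparisons come from no test and the PH list has no replicate.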
